A study of Mus musculus with 6 samples.

Results

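Chemokine ligands of untreated mouse lung were examined across 3 R/R and 3 WT lungs. The 10 ligands, Ccl5, Ccl6, Ccl9, Ccl17, Ccl25, Cxcl13, Cxcl14, Cxcl15, Cxcl16 and Cx3cl1, were a named list, found by gene symbol among the 56262 genes of the count table, and each symbol matched 1 gene. R/R mice are homozygous for RBM47 K329R;K332R, a CRISPR/Cas knock-in on the C57BL/6 background that replaces 2 lysines of the RNA-binding protein RBM47 with arginines. WT mice were littermates that carry the unmodified gene. All animals were 8 weeks of age and untreated, and paired-end reads of 150 bp were obtained from RNA of whole lung. The founder line and the sex of the animals are not given in the sources used here. Counts per gene do not show the 2 substitutions, so the genotypes rest on the labels. In the paper these are the 2 lysines of mouse RBM47 to which the ubiquitin-like protein ISG15 was attached. The comparison asks whether lungs whose RBM47 lacks them differ from WT lungs in the chemokines they make at rest.

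Chemokines are small secreted proteins that guide leukocytes through G protein-coupled receptors, and they are classed by the spacing of the first cysteines of the mature protein. In the CC class these cysteines are adjacent, in the CXC class a single residue lies between them, and in the CX3C class, of which Cx3cl1 (fractalkine) is the known mammalian member, they are separated by 3 residues. Inflammatory ligands are induced by infection or injury, whereas homeostatic ligands are made without a stimulus and keep cells such as macrophages, dendritic cells and lymphocytes in place. Cxcl16 and Cx3cl1 differ from the others in that they are made as membrane-bound proteins on a mucin stalk, from which the metalloproteases Adam10 and Adam17 release the chemokine.

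The coding sequences around these cysteines are shown because they set the 3 classes apart. They were read from the GENCODE M21 transcripts of the GRCm38 assembly, 5′ to 3′ on the coding strand, with the codons of both cysteines in capitals. Ccl5 (exon 2 of 3, minus strand, chr11:83529218-83529265), Ccl6 (exon 3 of 4, minus strand, chr11:83589362-83589412) and Ccl9 (exon 3 of 4, minus strand, chr11:83575902-83575949) have adjacent codons. Cxcl14 (exon 2 of 4, minus strand, chr13:56295891-56295929) and Cxcl15 (exon 2 of 4, plus strand, chr5:90795204-90795260) have 1 codon between them. Cx3cl1 (exon 2 of 3, plus strand, chr8:94778030-94778089) has 3.
Ccl5: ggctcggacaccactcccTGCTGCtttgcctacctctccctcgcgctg
Ccl6: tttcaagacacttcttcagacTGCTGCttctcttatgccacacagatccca
Ccl9: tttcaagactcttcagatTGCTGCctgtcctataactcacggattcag
Cxcl14: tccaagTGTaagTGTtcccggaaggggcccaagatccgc
Cxcl15: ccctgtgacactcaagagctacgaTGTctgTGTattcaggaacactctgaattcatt
Cx3cl1: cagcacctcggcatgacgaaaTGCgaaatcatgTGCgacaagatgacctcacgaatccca
Among the 10 ligands, Cxcl15 alone has codons for glutamate, leucine and arginine (gagctacga) directly before the first cysteine, the ELR motif that marks the CXC ligands of neutrophils. Ccl6 and Ccl9, whose genes lie close together on chromosome 11, had the most alike coding sequences of the 45 pairs of ligands, with 64.6% of aligned bases identical, and Ccl5 and Ccl17 followed with 51.4%. No stretch of 75 bases in the principal transcripts of 9 ligands occurred in another gene's transcripts, Ccl6 and Ccl9 included. In Cxcl16, 478 of 2567 such stretches (18.6%) also occurred in Zmynd15, which lies on the opposite strand and shares 552 exon bases (18.3% of the Cxcl16 length). Ccl25 shares 204 exon bases (2.74%) with Elavl1, also on the opposite strand. Counting took no account of strand and read pairs on both genes of such a pair were not counted, so the levels of Cxcl16 and Ccl25 are uncertain to that extent.

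The total count per lung ranged from 16815020 to 18071818 read pairs in R/R lungs and from 16501092 to 18141067 in WT lungs, so 3 counts, the limit that a count of 0 allows, corresponded to 0.166 to 0.182 CPM (counts of a gene relative to the library's total, scaled by TMM). This limit covers counting error only. Defining lung genes were abundant in every library: Sftpc of alveolar type 2 cells had 164819 to 243169 counts, Scgb1a1 of club cells 159025 to 242380 and Ager of alveolar type 1 cells 26228 to 31657. The summed level of 8 neutrophil markers was 219 CPM in WT replicate 1 and 207 CPM in WT replicate 3, against 76.3 to 109 CPM in the other 4 lungs. The summed level of 8 B cell markers was 108 to 141 CPM in R/R lungs and 188 to 225 CPM in WT lungs, and that of 8 alveolar macrophage markers, of which Chil3 had the highest counts, was 943 to 1062 CPM and 660 to 838 CPM. In bulk RNA, fewer cells of a type and less RNA per cell cannot be told apart, here and for every ligand that follows.

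The 10 ligands were expressed at very different levels at rest. On the scale of CPM per kilobase of exon, the only one on which levels of different genes are compared here, Cxcl15 was the highest with a mean of 622 ± 67.7 (SD, n = 6 lungs of both genotypes) and Cxcl13 the lowest with 0.640 ± 0.0801, a 972-fold difference. Cxcl15, also called lungkine and made by lung epithelium, contributed 68.8% of the summed level of the 10 ligands and had rank 31 among the 17120 genes tested. Cxcl14, a ligand of epithelium and stroma, followed at 157 ± 20.2 (17.3% of the sum) and Ccl6, a myeloid chemokine that binds Ccr1, at 63.5 ± 4.82 (7.06%). The first 3 ligands thus stood apart from each other and from the rest, since each exceeded the next by 3.97-fold, 2.47-fold and 2.91-fold and their ranges over the 6 lungs did not overlap.

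Cx3cl1 came at rank 4 with 21.9 ± 2.14 CPM per kilobase, with a range of 19.6 to 25.3. Cxcl16 had rank 5 at 17.0 ± 1.32 (15.9 to 19.5) and Ccl5, a ligand of Ccr1 and Ccr3 made by T and NK cells, rank 6 at 13.3 ± 3.95 (10.3 to 19.9). The order of these neighbours was not the same in every lung. Cxcl16 exceeded Ccl5 in 4 of 6 lungs, the exceptions being WT replicates 1 and 3, and the ranges of both ligands overlapped. Ccl17, the dendritic cell ligand of Ccr4, had rank 7 at 4.29 ± 0.785, and Ccl9, like Ccl6 a ligand of Ccr1, rank 8 at 3.12 ± 0.497. Ccl17 exceeded Ccl9 in all 6 lungs, although their ranges overlapped. Ccl25, the Ccr9 ligand known from thymus and small intestine, had rank 9 at 0.989 ± 0.178, and Cxcl13, the Cxcr5 ligand of B cell follicles, was last.

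**Figure D1:**
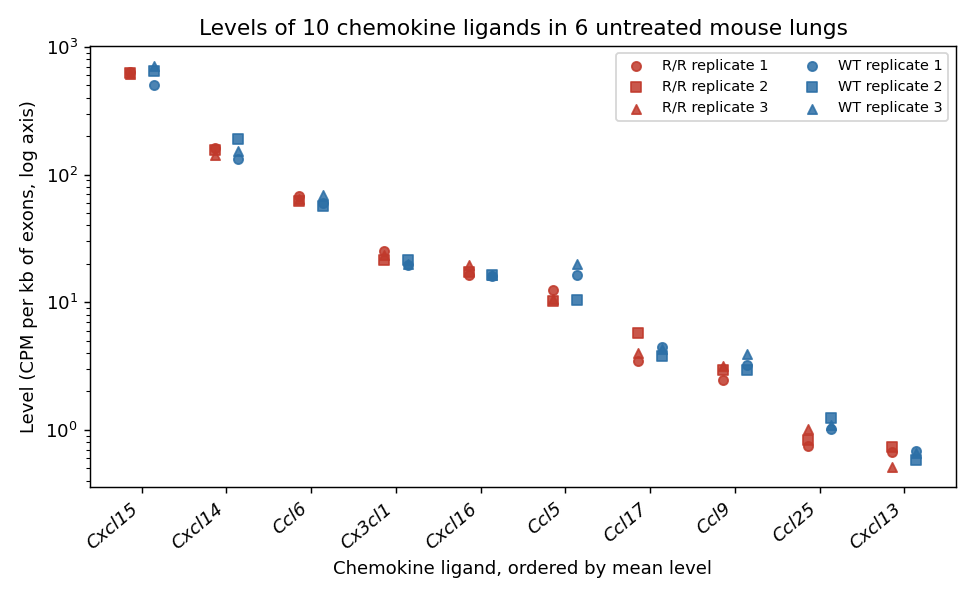
Level of each of the 10 ligands in each of the 6 lungs, in CPM per kilobase of exon on a log axis, ordered by the mean over all lungs. Points are single lungs (red, R/R; blue, WT; the marker shape gives the replicate number); Cxcl15 lies at 502 to 709.7 and Cxcl13 at 0.512 to 0.728, and of neighbours in the order, Cxcl16 and Ccl5 overlap, as do Ccl17 and Ccl9; Ccl5 in WT replicate 3 (19.9) also reaches the range of Cx3cl1 (19.6 to 25.3).

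All 10 ranks were the same without TMM scaling and when any single lung was left out. The ranks of low ligands depended on the length used. Exons of all transcripts of Ccl25 cover 7445 bases, but its principal transcript has 1058 bases, and with transcript lengths of this kind Ccl5 took rank 5 at 24.1, Cxcl16 rank 6 at 19.0 and Ccl25 rank 7 at 6.96 CPM per kilobase, so that 5 of 10 ranks were kept. That alternative was chosen after the data were seen. Among 38 chemokine ligands, made up of these 10 and 28 others, the 10 held ranks 1, 2, 3, 5, 6, 8, 11, 13, 18 and 21, and Cxcl12, the Cxcr4 ligand that retains leukocyte progenitors in bone marrow, had rank 4 at 57.4 CPM per kilobase.

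None of the 10 ligands differed between R/R and WT lungs past the adjusted threshold of 0.05 in edgeR's quasi-likelihood test, which called 300 of 17120 tested genes (1.75%), with 0.648% of all tested genes higher and 1.10% lower in R/R lungs. That number was 65 to 621 when single lungs were left out, lowest without WT replicate 1 and highest without WT replicate 3. DESeq2, edgeR's exact test and limma-voom called 0 of the 10 as well. With no filter on low counts 1 was called, Ccl5, at an adjusted p of 0.0137, although its own counts were the same, and that fit called 1109 of 31428 genes. At an unadjusted p of 0.05, 3 of 10 ligands passed in edgeR's quasi-likelihood test, Cx3cl1 being higher and Ccl5 and Ccl25 lower in R/R lungs, against 14.2% of all tested genes (6.54% higher and 7.68% lower). The 3 lungs of each genotype did not overlap for 2 of 10 ligands, Cx3cl1 above and Ccl25 below WT, and for 18.7% of all tested genes. The log2 fold change was positive for 5 ligands and negative for 5. Its median was 0.0052 over the 10 ligands and 0.0045 over all tested genes. The p-values of edgeR's quasi-likelihood test rest on the spread between 3 lungs of each genotype, moderated by that of all tested genes. The paper does not state the number of litters.

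**Figure D2:**
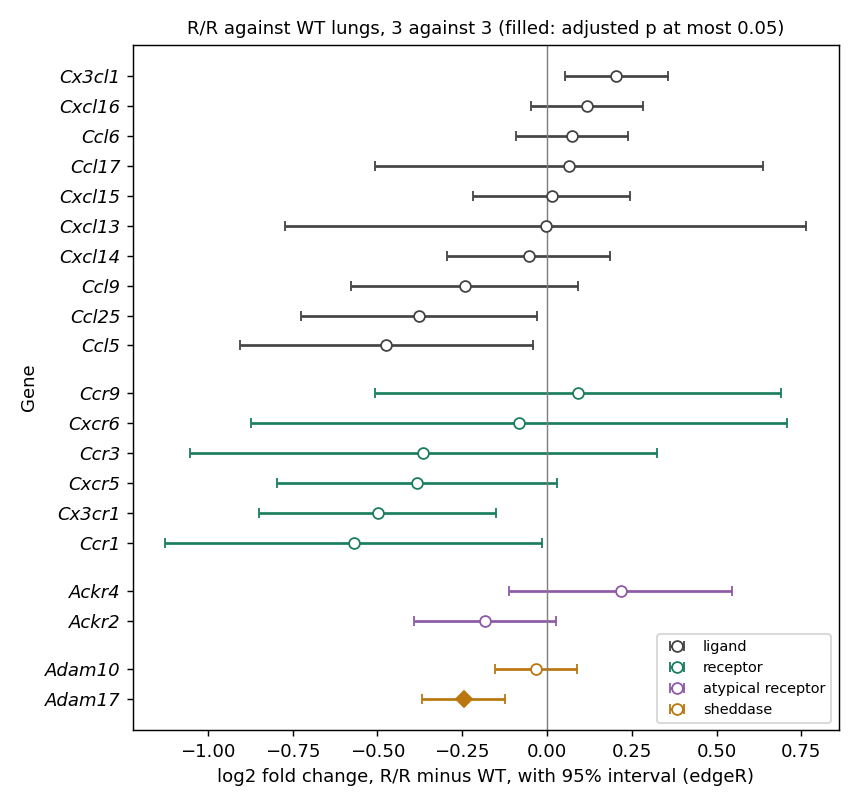
log2 fold change of R/R against WT lungs (x axis) for the 10 ligands, 6 of the tested receptors of these ligands, atypical chemokine receptors and sheddases, with bars for the 95% interval from edgeR. Filled symbols passed an adjusted p of 0.05; only Adam17, at -0.25, is filled, and among ligands the intervals of Cx3cl1, Ccl25 and Ccl5 do not reach 0.

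Of the CC ligands, Ccl5 (RANTES), which recruits T cells, NK cells and monocytes, had the largest difference. Its level was 12.0, 9.86 and 10.2 CPM in R/R replicates 1 to 3 and 15.7, 9.93 and 19.1 CPM in WT replicates 1 to 3. The genotypes overlapped because WT replicate 2 was as low as the R/R lungs. Ccl5 (ENSMUSG00000035042.2, chr11:83525778-83530518, minus strand) had a log2 fold change of -0.47 with an SE of 0.20 (95% interval -0.91 to -0.04), with an adjusted p of 0.301 in edgeR's quasi-likelihood test and an exact two-sided permutation p of 0.3. The smallest p that this permutation test allows for 3 against 3 lungs is 0.1, so it could not pass 0.05 for any gene. The difference was -0.70 without WT replicate 2 and -0.26 without WT replicate 3. The summed level of 8 NK cell markers was 50.7, 22.9 and 36.1 CPM in WT replicates 1 to 3. In R/R lungs, where Ccl5 was at 9.86 to 12.0 CPM, it was 35.2 to 46.1 CPM. That of 8 neutrophil markers was 219, 78.5 and 207 CPM in WT replicates 1 to 3 and 76.3 to 109 CPM in R/R lungs. That of 10 T cell markers was 45.8 to 56.1 CPM in R/R lungs and 66.0 to 88.8 CPM in WT lungs. All 10 had a negative log2 fold change. With edgeR's quasi-likelihood fit, 5 passed an unadjusted p of 0.05 and none passed the adjusted threshold. The same unadjusted limit was met by 7.68% of all tested genes in this direction. DESeq2 and edgeR's exact test each called Cd8a, Cd8b1 and Trac lower, among 342 and 389 genes that these tools called lower. The part of any of these cell types in the Ccl5 difference was not tested.

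Ccl6 and Ccl9 bind Ccr1 and are made mainly by macrophages and other myeloid cells. Ccl6 was at 123, 111 and 117 CPM in R/R lungs and at 107, 102 and 124 CPM in WT lungs. The highest lung was WT replicate 3 and the lowest WT replicate 2, so that the WT range enclosed the R/R lungs. Ccl6 (ENSMUSG00000018927.3, chr11:83587882-83593087, minus strand) had a log2 fold change of 0.07 with an SE of 0.08 (-0.09 to 0.24; adjusted p 0.732, edgeR), and it was 0.02 to 0.16 when single lungs were left out. Ccl9 was at 7.44, 9.03 and 9.66 CPM in R/R lungs and at 9.84, 8.996 and 12.1 CPM in WT lungs. Ccl9 was lowest in R/R replicate 1 and highest in WT replicate 3, with the other 4 lungs close together. Ccl9 (ENSMUSG00000019122.8, chr11:83572919-83578636, minus strand) had a log2 fold change of -0.24 with an SE of 0.15 (-0.58 to 0.09; adjusted p 0.527, edgeR), and it was -0.12 without WT replicate 3 and -0.14 without R/R replicate 1. Beside these values, 2 of 8 alveolar macrophage markers were called higher in R/R lungs, where 0.648% of all tested genes were. They were Chil3, a chitinase-like protein with close copies in the genome, with a log2 fold change of 0.68, and Mrc1, the mannose receptor, with 0.42 (adjusted p 0.0233 and 0.0486, edgeR). Both calls were lost when any lung other than WT replicate 3 was left out. Of the other 6 markers, 4 had a positive log2 fold change, and Fabp4 and Car4 were at -0.15 and -0.10. The part of these cells in the values of Ccl6 and Ccl9 was not tested.

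Ccl17 and Ccl25 were low. Ccl17 (TARC, ENSMUSG00000031780.2, chr8:94810453-94812036, plus strand), made by dendritic cells, was counted 32, 49 and 35 times in R/R and 38, 35 and 38 times in WT lungs, or 1.78, 2.93 and 2.06 CPM and 2.31, 1.93 and 2.22 CPM. R/R replicate 2 was the highest and R/R replicate 1 the lowest, on either side of all 3 WT lungs. The log2 fold change was 0.06 with an SE of 0.26, and at this depth the 95% interval ran from -0.51 to 0.64. Its adjusted p was 0.950 in edgeR's quasi-likelihood test. The summed level of 8 dendritic cell markers was 138 to 147 CPM in R/R lungs and 136 to 156 CPM in WT lungs. Clec9a, at 46.9 to 58.7 CPM, and Zbtb46, at 52.5 to 65.2 CPM, weighed most in this sum, and the list includes the ligand Ccl22. The part of dendritic cells in the Ccl17 values was not tested.

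Ccl25 (TECK, ENSMUSG00000023235.14, chr8:4325210-4360020, plus strand) was at 5.55, 6.16 and 7.54 CPM in R/R lungs and at 7.59, 9.16 and 8.20 CPM in WT lungs. The genotypes did not overlap, all R/R lungs being the lower, with R/R replicate 3 and WT replicate 1 nearly level. The means were 6.42 ± 1.02 and 8.32 ± 0.792 CPM (SD, n = 3 each), a log2 fold change of -0.38 with an SE of 0.16 (95% interval -0.72 to -0.03). It had an adjusted p of 0.308 in edgeR's quasi-likelihood test and an exact two-sided permutation p of 0.1. R/R lungs lay below WT lungs without overlap in 9.50% of all tested genes. The difference was -0.51 to -0.28 when single lungs were left out. Of 8 markers of thymus, a main source of Ccl25, Foxn1, the transcription factor of thymic epithelium, had 0 counts in all 6 lungs, Rag1, Ptcra, Dntt and Psmb11 had 0 to 7 counts each and Prss16 had 2 to 10. The other markers were present, Themis at 16 to 51 and Cd1d1 at 260 to 358 counts, and the summed level of the list was 17.0 to 22.0 CPM in R/R lungs and 20.5 to 22.1 CPM in WT lungs. The part of thymic tissue in the Ccl25 difference was not tested.

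The log2 fold changes of the 4 CXC ligands were all within 0.12 of 0, and for the most abundant of them the WT lungs spread more widely than the R/R lungs. Cxcl15 (ENSMUSG00000029375.6, chr5:90794534-90803067, plus strand) was at 1346, 1329 and 1314 CPM in R/R lungs and at 1067, 1374 and 1509.6 CPM in WT lungs. The R/R lungs were close together and within the WT range. The mean was 1329.7 ± 16.0 CPM for R/R and 1317 ± 227 CPM for WT (SD, n = 3 each), a log2 fold change of 0.01 with an SE of 0.11 (95% interval -0.22 to 0.25; adjusted p 0.976, edgeR). The direction depended on WT replicate 1, without which the log2 fold change was -0.12. That lung also had the lowest summed level of 8 alveolar type 2 markers, 19686 CPM against 21614 to 26344 CPM in the others. WT replicate 3, the lung with the highest Cxcl15, had a sum of 24559 CPM, below the 24958 to 26344 CPM of the R/R lungs. Sftpc, at 10010 to 13790 CPM, weighed most in this sum. Sftpd and Lamp3 were, like Cxcl15, highest in WT replicate 3, at 588 and 511 CPM. The remaining markers of the list were highest in an R/R lung. The part of these cells in the Cxcl15 values was not tested.

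Cxcl14 (BRAK, ENSMUSG00000021508.11, chr13:56288643-56296551, minus strand) was at 297, 284 and 262 CPM in R/R lungs and at 242, 350.3 and 282 CPM in WT lungs. The highest and the lowest lung were both WT, replicates 2 and 1, and the R/R lungs lay between them. The log2 fold change was -0.05 with an SE of 0.11 (95% interval -0.29 to 0.19; adjusted p 0.886, edgeR), and it turned to 0.10 without WT replicate 2. The summed level of 8 fibroblast markers was 4445 to 5094 CPM in R/R lungs and 4946 to 5453 CPM in WT lungs, and it was highest in WT replicate 3. The part of fibroblasts in the Cxcl14 values was not tested.

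Cxcl16, the membrane-bound ligand of Cxcr6 and also known as a scavenger receptor for oxidized lipid, was at 48.9, 52.3 and 58.9 CPM in R/R lungs and at 48.2, 49.6 and 49.8 CPM in WT lungs. R/R replicates 2 and 3 were above every WT lung, while R/R replicate 1 was within the narrow WT range. Cxcl16 (ENSMUSG00000018920.11, chr11:70453983-70459984, minus strand) had a log2 fold change of 0.12 with an SE of 0.08 (95% interval -0.05 to 0.28; adjusted p 0.537, edgeR), and it was 0.04 without R/R replicate 3. Cxcl13 (ENSMUSG00000023078.6, chr5:95956951-95961068, plus strand), which draws B cells into follicles, was counted 14, 14 and 10 times in R/R and 13, 12 and 13 times in WT lungs. R/R replicate 3 had the fewest and the genotypes overlapped. Its mean level was 0.734 ± 0.129 CPM for R/R and 0.738 ± 0.0668 CPM for WT (SD, n = 3 each). At these counts the 95% interval of the log2 fold change ran from -0.77 to 0.77, so differences up to that size in either direction were not excluded.

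Among the markers of B cells, the cells that follow Cxcl13, Ms4a1, Cd79a, Pax5 and Fcer2a were called lower in R/R lungs by edgeR's quasi-likelihood test, with adjusted p values of 0.00675 to 0.0491. Of all tested genes, 1.10% were called lower. Ms4a1 kept its call without any single lung, and Cd79a, Pax5 and Fcer2a kept it only without R/R replicate 1 or WT replicate 3. Cd79b, Ebf1 and Cr2 did not pass, with log2 fold changes of -0.64, -0.27 and -0.16, and Cr2 overlapped between the genotypes. Of 8 markers of lymph node stroma, Glycam1 had 0 counts in all lungs, Madcam1, Ccl19 and Ccl21a had 0 to 3 and Tnfsf11 had 4 to 13. Il7 had 39 to 50, Pdpn 2099 to 2545 and Mfge8 5108 to 6597 counts, and Pdpn also stands in the list of alveolar type 1 markers. Over the list, the summed level was 428 to 489 CPM in R/R lungs and 447 to 512 CPM in WT lungs.

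**Figure D3:**
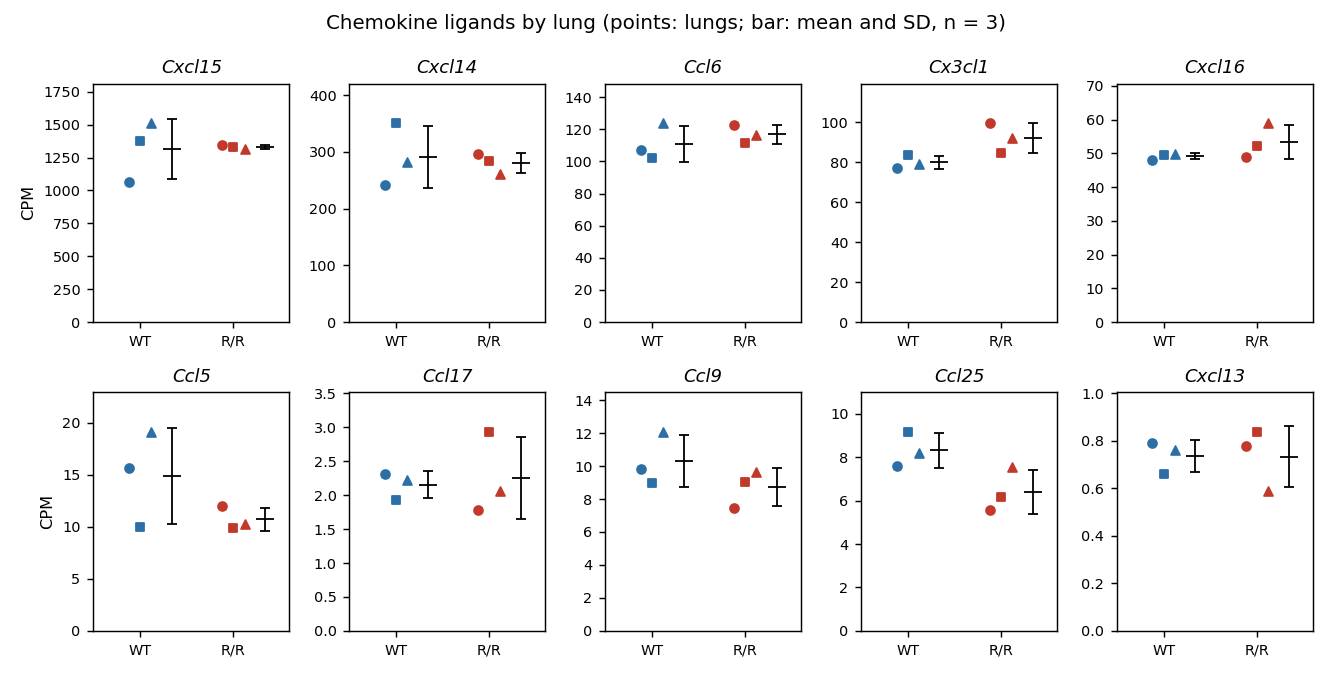
CPM (y axis, from 0) of the 10 ligands in WT (blue) and R/R (red) lungs, 1 panel per ligand. Points are single lungs, with circles, squares and triangles for replicates 1, 2 and 3, and bars are the mean and SD (n = 3); the genotypes do not overlap for Cx3cl1, 84.4 to 99.3 in R/R against 77.1 to 83.5 in WT, and for Ccl25, and overlap for the other 8.

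Cx3cl1, which in its membrane-bound form holds Cx3cr1-expressing monocytes on endothelium and epithelium, was the ligand with the smallest unadjusted p. It was at 99.3, 84.4 and 92.1 CPM in R/R lungs and at 77.1, 83.5 and 78.9 CPM in WT lungs. Every R/R lung was above every WT lung, R/R replicate 2 by less than 1 CPM. The means were 91.9 ± 7.47 and 79.8 ± 3.29 CPM (SD, n = 3 each). Cx3cl1 (ENSMUSG00000031778.13, chr8:94772009-94782427, plus strand) had a log2 fold change of 0.20 with an SE of 0.07 (95% interval 0.05 to 0.36), an unadjusted p of 0.0128 and an adjusted p of 0.193 in edgeR's quasi-likelihood test. The exact two-sided permutation p was 0.1. R/R lungs lay above WT lungs without overlap in 9.17% of all tested genes. When single lungs were left out the log2 fold change was 0.14 to 0.26, and its adjusted p was 0.0988 to 0.229 under 8 other choices of tool, scaling, filter or replicate block. For 8 endothelial markers the summed level was 5545 to 5639 CPM in R/R lungs and 5440 to 6047 CPM in WT lungs.

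For the receptor of Cx3cl1 the genotypes stood in the opposite order. Cx3cr1, expressed by monocytes, interstitial macrophages and NK cells, was at 24.1, 19.6 and 20.9 CPM in R/R lungs and at 40.1, 24.4 and 27.0 CPM in WT lungs. All 3 R/R lungs were below the WT lungs, with R/R replicate 1 and WT replicate 2 nearly level, and WT replicate 1 stood above all others. R/R lungs lay below WT lungs without overlap in 9.50% of all tested genes. The log2 fold change of Cx3cr1 was -0.50 with an SE of 0.16 (95% interval -0.85 to -0.15), with an adjusted p of 0.164 in edgeR's quasi-likelihood test. This result depended on the test: Cx3cr1 was called by DESeq2 (adjusted p 0.0441), with no filter on low counts (5.98e-05) and with the replicate number as a block (0.0299), a number that did not pair the lungs. Without WT replicate 1 it was -0.26 on the log2 scale. Of 8 monocyte and interstitial macrophage markers, 4 had a positive and 4 a negative log2 fold change. Nr4a1, a transcription factor of nonclassical monocytes and an immediate early gene, was called higher in R/R lungs (log2 fold change 0.76, adjusted p 0.0148, edgeR), a call lost without WT replicate 1. Treml4, another nonclassical monocyte marker, was at -0.76 (adjusted p 0.0761, edgeR) and was called lower by DESeq2 and edgeR's exact test. Over all 8 markers the summed level was 368 to 391 CPM in R/R lungs and 335 to 374 CPM in WT lungs.

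Of the sheddases that release Cx3cl1 and Cxcl16, Adam10 did not pass the test and Adam17 was called lower in R/R lungs. Adam17, also the converting enzyme of TNF, was at 90.2, 94.3 and 93.7 CPM in R/R lungs and at 107, 110.1 and 113 CPM in WT lungs. The genotypes were well separated, with means of 92.7 ± 2.23 and 109.9 ± 3.17 CPM (SD, n = 3 each). The log2 fold change was -0.25 with an SE of 0.06 (95% interval -0.37 to -0.12), and its adjusted p of 0.04999 in edgeR's quasi-likelihood test was just within the threshold. The call was lost when any single lung was left out (adjusted p 0.0774 to 0.165) and in 5 of 8 other alternatives. Adam10 was at 159, 161 and 153 CPM in R/R lungs and at 161, 166 and 155 CPM in WT lungs, a log2 fold change of -0.03 with an SE of 0.06 (95% interval -0.15 to 0.09; adjusted p 0.863, edgeR).

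**Figure D4:**
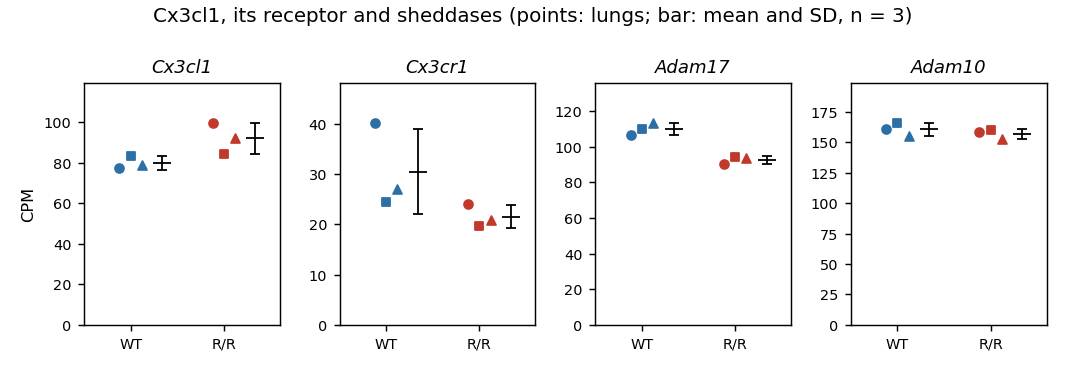
CPM (y axis, from 0) of Cx3cl1, its receptor Cx3cr1 and the sheddases Adam17 and Adam10 in WT (blue) and R/R (red) lungs. Points are single lungs, with circles, squares and triangles for replicates 1, 2 and 3, and bars are the mean and SD (n = 3); R/R lungs lie above WT for Cx3cl1, below WT for Cx3cr1 and Adam17, and overlap for Adam10.

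Of the 8 listed receptors of these ligands, none of which stands for Cxcl14 or Cxcl15, 7 were tested and none was called by edgeR's quasi-likelihood test, edgeR's exact test or limma-voom, whereas DESeq2 called Cx3cr1 alone. At an unadjusted p of 0.05, 2 of 7 were lower in R/R lungs, Cx3cr1 and Ccr1, as were 7.68% of all tested genes. Ccr1, the receptor of Ccl5, Ccl6 and Ccl9 on neutrophils and monocytes, was at 7.05, 5.44 and 4.95 CPM in R/R lungs and at 10.6, 5.08 and 10.4 CPM in WT lungs. Its high lungs were WT replicates 1 and 3, the same lungs as for the neutrophil markers, and the genotypes overlapped. Ccr1 had a log2 fold change of -0.57 with an SE of 0.25 (95% interval -1.13 to -0.01; adjusted p 0.338, edgeR). The part of neutrophils in this difference was not tested.

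Cxcr5, the receptor of Cxcl13 on B cells, was at 5.05, 8.01 and 5.54 CPM in R/R lungs and at 9.23, 7.34 and 7.67 CPM in WT lungs. R/R replicate 2 was within the WT range and the other R/R lungs were below it. Cxcr5 had a log2 fold change of -0.38 with an SE of 0.19 (95% interval -0.80 to 0.03; adjusted p 0.398, edgeR). Ccr3, a Ccl5 receptor of eosinophils, had a log2 fold change of -0.36 (SE 0.32), Ccr9, the receptor of Ccl25, 0.09 (SE 0.27) and Cxcr6, the receptor of Cxcl16 on T cells, -0.08 (SE 0.36), and all 3 overlapped between the genotypes. Ccr4, the receptor of Ccl17, was too low to be tested, with counts of 13, 6 and 2 for R/R and of 7, 14 and 9 for WT.

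Atypical receptors bind chemokines without signalling for migration and remove or transport them. Ackr2, a scavenger of inflammatory CC ligands, was at 45.7 to 55.8 CPM in R/R lungs and 51.1 to 64.4 CPM in WT lungs, with a log2 fold change of -0.18 (SE 0.10, adjusted p 0.428, edgeR). Ackr4, which takes up Ccl25, was at 12.1 to 18.2 CPM and 11.6 to 14.8 CPM, with a log2 fold change of 0.22 (SE 0.15, adjusted p 0.578, edgeR). Ackr1, the chemokine carrier of venules and red cells, had 1 to 4 counts per lung and was not tested.

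Of the 28 other chemokine ligands, 12 were abundant enough to be tested and 1 was called, Cxcl12, which was lower in R/R lungs. The same test called 1.75% of all tested genes, 1.10% of them all being lower. Cxcl12 was at 319, 402 and 333 CPM in R/R lungs and at 659.7, 613 and 488 CPM in WT lungs, a log2 fold change of -0.74 with an SE of 0.11 (95% interval -0.98 to -0.49; adjusted p 0.0104, edgeR). It was the lowest log2 fold change of this list and was called under all 8 of those other choices and without any single lung. The highest was that of Cxcl1, a neutrophil ligand, at 1.11 with an SE of 0.62, from counts of 14, 10 and 11 for R/R and of 0, 8 and 8 for WT (adjusted p 0.469, edgeR). The median log2 fold change of the 12 was -0.05. Ccl1, Ccl26 and Cxcl11 had 0 counts in all 6 lungs. Of the 12 other receptors, 11 were tested and none was called by edgeR's quasi-likelihood test, DESeq2 or limma-voom, whereas edgeR's exact test called Cxcr2. Their log2 fold changes ran from -1.31 (SE 0.37) for Cxcr2, the receptor of ELR-bearing CXC ligands on neutrophils, to 0.21 (SE 0.22) for Xcr1 of dendritic cells.

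The genes most like a ligand were sought for the 3 ligands whose log2 CPM ranged most widely over the 6 lungs, among 12284 genes with a mean of at least 5 CPM. Likeness was the root mean square difference of centred log2 CPM, for which smaller values mean a closer course over the lungs. For Ccl5, with a range of 0.95, the closest were Lck, a kinase of T cell receptor signalling, at 0.118, Nlrp3, the inflammasome sensor, at 0.120, and Pglyrp1, a peptidoglycan recognition protein of neutrophil granules, at 0.127. For Ccl25, with a range of 0.72, they were Cnr1 at 0.0554, Pkn3 at 0.0661 and Slco5a1 at 0.0685. For Ccl17, with a range of 0.71, they were Pcdh19 at 0.0653, Zfp189 at 0.0659 and B3galt4 at 0.0731. These values describe 6 lungs that share their library scaling, and carry no test.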

How the data were processed

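Lungs of 3 R/R and 3 WT mice were compared, with genotype and replicate number as in the labels. The authors mapped the reads to GRCm38 (mm10) using HISAT2 2.1.0. They deposited unnormalized counts, the number of read pairs on each gene, made by featureCounts 2.0.1 with the GENCODE M25 annotation and without a strand option, so that pairs mapped to several places or to overlapping genes were left out. The supplement names a stranded protocol, Trizol extraction and another featureCounts version, whereas the labels name RNeasy columns and the submitters' processing notes also list DESeq2. One of the 6 deposited columns is recorded here as another unit, because an automatic check misread the comment line of the table. It holds raw counts like the others. Symbols, sequences and the coordinates of the sequences came from GENCODE M21 of the same assembly, in which 55141 of 56262 identifiers had a symbol. Gene coordinates were those deposited with the counts.

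The quasi-likelihood fit of edgeR 4.0.16 (R 4.3.3) was run on genes kept by filterByExpr (minimum count 10, minimum total 15) with TMM factors and no covariates. P-values were adjusted by Benjamini-Hochberg over all 17120 tested genes with a threshold of 0.05. Single genes were also compared by an exact permutation test on log2 CPM (prior count 0.5). The SE is the log2 fold change over the root of the F statistic, and 95% intervals used the degrees of freedom of that fit. The fit was tested on simulated data beforehand. Levels of different genes were compared as CPM per kilobase of the exon length in the deposited table.

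The ligands, gene lists and markers were chosen with earlier results of these data known. Genes named are the 10 ligands, their receptors, both sheddases, called genes and the extremes of each chemokine list, and the closest genes of 3 ligands. Markers and ligands named outside this rule were chosen after their values were seen. As alternatives, the test was replaced by DESeq2 1.42.0, by the exact test of edgeR or by limma-voom (limma 3.58.1), and TMM by the library size or by upper-quartile factors. The filter was replaced by a total of at least 1 count or by 1 CPM in 3 lungs. The replicate number was added as a block, single lungs were left out, and other lengths were used for the ranking. Replicate numbers did not pair the lungs. Promoter and protein sequences were not used here. A receptor and a marker of the lists are not reported here.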

Additional observations from a re-analysis of the deposited data

How the results depend on the processing

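Of all tested genes, 300 were called, against 541 with DESeq2, 630 with edgeR's exact test, 1109 with no filter beyond 1 count in total and 65 to 621 when single lungs were left out, lowest without WT replicate 1 and highest without WT replicate 3. The count of called ligands was 0 in every fit except 1 with no filter (Ccl5). Called receptors of the ligands went from 0 to 1 with DESeq2, 2 with no filter (Cx3cr1 and Ccr1) and 1 with the replicate block. Other receptors went from 0 to 1 with edgeR's exact test, 2 with no filter (Cxcr2 and Ccr2), 1 with the replicate block and 0 to 1 when single lungs were left out (Cxcr2, without WT replicate 2). The ranking kept 7 of 10 places without division by length and 5 with principal transcripts, chosen after seeing the data. The sign of log2 fold changes near 0 turned for Cxcl13 with no filter (0.0010). When single lungs were left out it turned for Cxcl13 (-0.10 to 0.13; positive without R/R replicate 3 or without replicate 1 or 3 of WT), Ccl17 (-0.17 to 0.21; negative without replicate 2 of either genotype), Cxcl15 (-0.12 to 0.12; negative without WT replicate 1) and Cxcl14 (-0.17 to 0.10; positive without WT replicate 2). The cause of these changes was not tested. Leaving out a lung leaves 5, and with no filter 31428 genes were tested. The replicate numbers are shared by label only: correlations of same-numbered lungs were -0.015 to -0.0036, and the replicate block called 446 genes. Counts of 10 to 14 per lung limit Cxcl13 most, and 32 to 49 limit Ccl17.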

Other observations

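Ratios of ligand to receptor counts within a lung were compared for 7 pairs after the values of both had been seen. Cx3cl1 had 4.12, 4.30 and 4.40 counts per count of Cx3cr1 in R/R lungs and 1.92, 3.42 and 2.92 in WT lungs, with no overlap. The exact two-sided permutation p was 0.1, the smallest that 3 against 3 lungs allow (0.233 adjusted by Benjamini-Hochberg over the 7 pairs). Every R/R lung was above WT for Cx3cl1 and below WT for Cx3cr1, so this outcome was fixed in advance. The ratio adds no evidence beyond the values of both genes. The R/R lungs were close together and WT replicate 1 was the lowest. Such a separation was not particular to this pair. Cxcl13 had 0.154, 0.104 and 0.106 counts per count of Cxcr5 in R/R lungs and 0.0855, 0.0902 and 0.0992 in WT lungs. These ratios also did not overlap and had the same permutation p of 0.1 (0.233 adjusted), from few counts of Cxcl13. The ratios of Cxcl16 to Cxcr6, Ccl25 to Ccr9 and of Ccl6 and Ccl9 to Ccr1 overlapped between the genotypes.

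Ccl22, the second ligand of Ccr4 and like Ccl17 a product of dendritic cells, was at 8.16, 8.31 and 9.95 CPM in R/R lungs and at 6.195, 7.95 and 6.67 CPM in WT lungs. Every R/R lung was above every WT lung, with a log2 fold change of 0.34 (SE 0.15, adjusted p 0.336, edgeR). The genes of Ccl22, Cx3cl1 and Ccl17 lie close together on chromosome 8 (chr8:94745590-94751699, chr8:94772009-94782427 and chr8:94810453-94812036). Ccl17 overlapped between the genotypes, and R/R lungs lay above WT lungs without overlap in 9.17% of all tested genes.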
